A study of Mus musculus with 6 samples.

Results

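Acat2, Hmgcs1, Mvk, Pmvk, Mvd, Idi1, Fdps, Ggps1 and Fdft1 code for the enzymes that lead from acetyl-CoA to squalene through mevalonate, with the branch to geranylgeranyl diphosphate. They were examined in liver RNA of 1-month-old untreated mice on exon arrays from Affymetrix, where a gene is read by several probe sets along its exons. The members were all probe sets that the array annotation assigned to exactly 1 of these 9 symbols. It assigned 88 of the 208397 probe sets with 1 gene to 8 of the members, out of 16277 genes in all, and Acat2 is not analysed here. The SRSF3HKO group held 3 livers of mice with a hepatocyte knockout of Srsf3, the gene of an SR family splicing factor. The WT group held 3 livers of age-matched mice, described as wild-type littermates. The driver of the knockout, the deleted part of the gene, the strain and the sex are not given in the sources used here. The labels name 3 SRSF3HKO mice and do not count the WT mice. A Y-linked signal, given below, differed within each group, so each held RNA of at least 2 animals. The p-values measure the spread among these arrays, and 3 arrays per group limit the precision.

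The mevalonate pathway makes the building blocks of cholesterol and of the isoprenoids that anchor small GTPases to membranes. Liver is a main site of cholesterol synthesis, and most genes of the pathway are known targets of the transcription factor SREBP2. SREBP2 is held in the endoplasmic reticulum by INSIG proteins when sterols are plentiful, and is carried by SCAP to the Golgi and released by proteolysis when they are scarce. It acts at promoters together with NF-Y, which binds CCAAT boxes, and Sp1, which binds GC boxes.

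The promoters of the members are shown because 7 of 8 measured members moved together and Ggps1 did not. RefSeq windows on GRCm38, from 250 bases before to 50 after an annotated start, were held for 7 of the 9 members (Fdps and Fdft1 had no entry), 8 windows in all. They were searched on both strands for an SREBP site written TCACNCCAC, for CCAAT and for the GC box GGGCGG. The SREBP letters were found in 1 of the 8 windows, that of Hmgcs1, where the match begins 137 bases before the start, against 1.24% of 32851 promoter windows of the same length. CCAAT was found in 6 of the 8 windows, including that of Ggps1, against 37.4% of all windows, and GGGCGG in 5 of the 8, against 35.7%. The windows without GGGCGG were that of Ggps1, which rose, and those of Pmvk, which fell. Those with it include the window of Acat2, which was not measured. A match is a description of letters, not a site in use. A window without a match does not show that a site is lacking, since other spellings and bases outside the window were not searched. The windows of Hmgcs1, of Idi1 and Mvd, which fell, and of Ggps1, which rose, are printed 5′ to 3′ with SREBP and CCAAT matches in capitals; these matches do not overlap.
Hmgcs1 (chr13:119690101-119690400, plus strand): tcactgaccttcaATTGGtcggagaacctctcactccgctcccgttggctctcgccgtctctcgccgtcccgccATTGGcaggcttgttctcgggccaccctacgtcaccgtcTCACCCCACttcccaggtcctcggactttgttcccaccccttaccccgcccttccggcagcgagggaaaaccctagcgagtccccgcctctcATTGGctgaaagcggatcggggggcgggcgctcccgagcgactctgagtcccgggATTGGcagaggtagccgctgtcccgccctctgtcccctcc
Idi1 (chr13:8885356-8885655, plus strand): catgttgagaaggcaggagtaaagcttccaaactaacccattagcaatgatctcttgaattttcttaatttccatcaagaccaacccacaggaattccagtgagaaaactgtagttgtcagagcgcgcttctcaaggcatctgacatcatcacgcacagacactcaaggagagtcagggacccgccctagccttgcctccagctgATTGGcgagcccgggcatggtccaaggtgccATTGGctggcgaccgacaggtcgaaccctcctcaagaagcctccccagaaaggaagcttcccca
Mvd (chr8:122443373-122443672, minus strand): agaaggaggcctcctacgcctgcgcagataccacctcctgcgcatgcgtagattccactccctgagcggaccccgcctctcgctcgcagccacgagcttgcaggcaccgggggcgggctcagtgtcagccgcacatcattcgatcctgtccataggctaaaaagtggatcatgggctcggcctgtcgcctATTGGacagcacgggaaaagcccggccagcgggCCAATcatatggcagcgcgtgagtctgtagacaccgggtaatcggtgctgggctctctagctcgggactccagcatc
Ggps1 (chr13:14063439-14063738, minus strand): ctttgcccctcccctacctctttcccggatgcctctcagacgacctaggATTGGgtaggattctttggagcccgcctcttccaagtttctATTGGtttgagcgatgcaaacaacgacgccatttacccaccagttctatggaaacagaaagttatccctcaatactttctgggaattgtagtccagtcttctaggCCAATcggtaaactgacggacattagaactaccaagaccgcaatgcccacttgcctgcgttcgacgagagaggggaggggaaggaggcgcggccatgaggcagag

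Of the 8 measured members, 7 fell in SRSF3HKO livers and 1, Ggps1, rose. The falls ran from a log2 change of -3.12 for Idi1 to -1.56 for Pmvk, that is from 8.71-fold to 2.94-fold lower, and the rise of Ggps1 was 1.64-fold. The level of a gene is the median over its probe sets of log2(intensity + 16), every change is SRSF3HKO minus WT on that scale with its SE and 3 arrays per group, and this scale understates the change of dim genes. A gene was called at an adjusted p under 0.05 by limma over all 11711 genes whose mean exceeded a detection floor of 5.35. In that comparison 5.03% of genes were called lower and 6.85% higher. The members had a median change of -1.69, against 0.08 over all genes tested. Without WT replicate 1 or WT replicate 2, 4 members were called, all lower. These 4 were Hmgcs1, Mvk, Idi1 and Fdft1, which were called under every alternative tried.

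Hmgcs1 codes for cytosolic HMG-CoA synthase, which makes the precursor of mevalonate. Its gene level (log2) was 12.45, 11.78 and 12.09 on the WT arrays and 9.08, 9.53 and 8.90 on the knockout arrays. Every SRSF3HKO array lay more than 2 log2 units below the lowest WT array. The log2 change was -2.93 ± 0.24 (limma adjusted p = 0.000827), the 51st most negative of the 11711 genes.

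Mvk, Pmvk and Mvd code for the 3 enzymes that phosphorylate mevalonate in steps and decarboxylate it to isopentenyl diphosphate. Mevalonate kinase, Mvk, read 8.51, 8.61 and 8.67 on the WT arrays. The SRSF3HKO arrays read 6.87, 6.90 and 7.28, which gave a log2 change of -1.58 ± 0.20 (limma adjusted p = 0.00368). The WT arrays were close together, with an SD of 0.08. Phosphomevalonate kinase, Pmvk, read 9.28, 9.56 and 9.27 in WT livers. In the knockout it read 7.79, 6.97 and 8.67, with a log2 change of -1.56 ± 0.39 (limma adjusted p = 0.0388). Its SRSF3HKO arrays were the most scattered of any member, with an SD of 0.85 against 0.16 in WT, although all 3 lay below WT. The Pmvk call was lost when any WT array or SRSF3HKO replicate 1 was left out (limma adjusted p = 0.121, 0.147, 0.108 and 0.0632). Mvd, the decarboxylase gene, read 8.67, 8.60 and 8.16 in WT livers against 6.92, 6.25 and 7.07 in the knockout, for a log2 change of -1.73 ± 0.27 (limma adjusted p = 0.00841). Its call ended narrowly without WT replicate 1 or WT replicate 2 (limma adjusted p = 0.0540 and 0.0546).

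Idi1 codes for the isomerase that turns isopentenyl diphosphate into dimethylallyl diphosphate, the primer for chain building. On the WT arrays it read 11.60, 11.04 and 11.60 (log2), and on the SRSF3HKO arrays 8.03, 8.25 and 8.59. The groups were far apart, and the log2 change of -3.12 ± 0.24 (limma adjusted p = 0.000532) was the 44th most negative of all genes tested.

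The products of Idi1 are joined by farnesyl diphosphate synthase, the product of Fdps. That gene read 11.37, 10.93 and 10.58 (log2) in WT livers. The knockout livers read 9.06, 9.67 and 9.20, and the log2 change was -1.65 ± 0.26 (limma adjusted p = 0.00875). The groups did not overlap, but the call ended narrowly without WT replicate 1 or WT replicate 2 (limma adjusted p = 0.0521 and 0.0546). Fdft1 codes for squalene synthase, which commits farnesyl diphosphate to sterols. Its WT arrays read 11.19, 10.92 and 10.87 (log2) and its SRSF3HKO arrays 8.88, 9.55 and 9.03, with no overlap. The log2 change was -1.84 ± 0.22 (limma adjusted p = 0.00341).

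Ggps1 codes for geranylgeranyl diphosphate synthase, which draws on the same farnesyl diphosphate to make a lipid that anchors small GTPases. Its WT arrays read 6.31, 6.12 and 6.22 (log2), and its SRSF3HKO arrays 7.05, 7.01 and 6.72. All 3 SRSF3HKO arrays lay above all WT arrays, and the log2 change was 0.71 ± 0.18 (limma adjusted p = 0.0412). This was the least firm call of the 8. It ended without any 1 of the 3 WT arrays (limma adjusted p = 0.124, 0.137 and 0.135), without SRSF3HKO replicate 1 or 2 (0.0787 and 0.0519), with no filter on low genes (0.0540) and with the Y-linked signal described below as a covariate (0.106). Ggps1 was also the dimmest member, and its change was 0.47 with a pseudocount of 64.

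**Figure D1:**
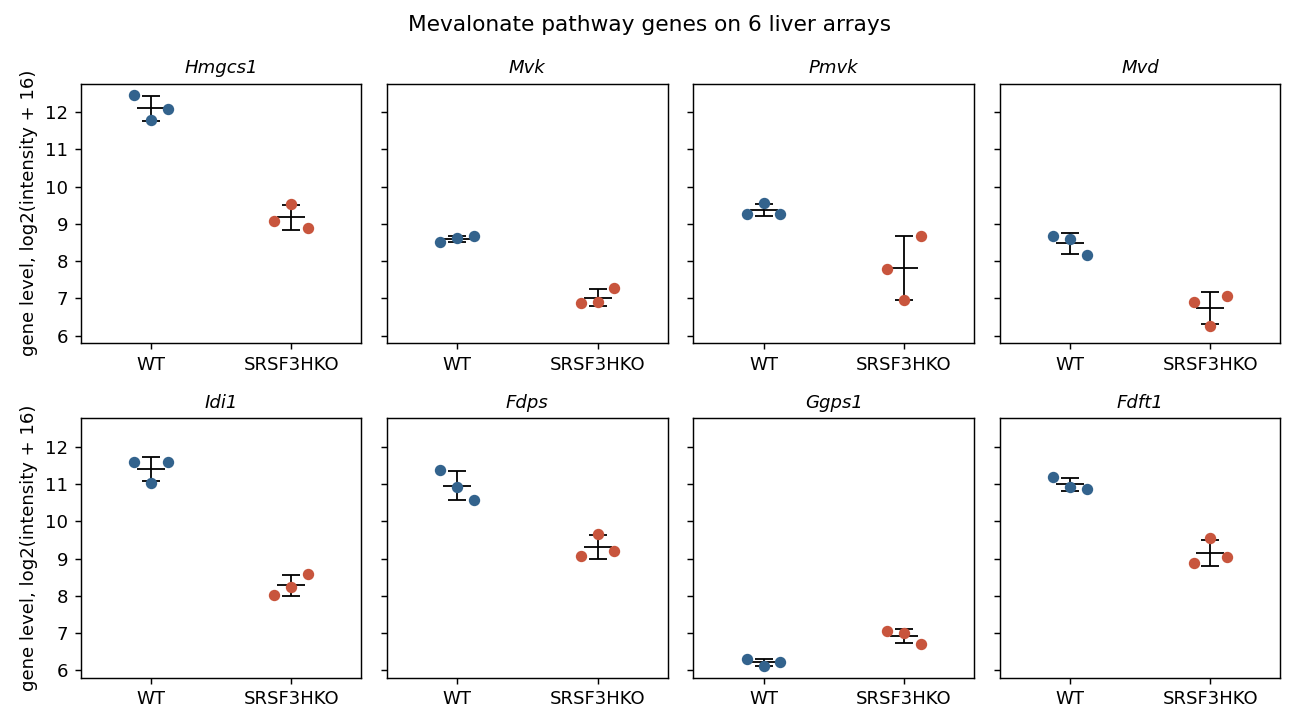
Gene-level log2(intensity + 16) of the 8 measured members (y axis) by genotype (x axis). Points are the 3 arrays of a group, the horizontal mark is the group mean and the bar its SD. In 7 panels every SRSF3HKO point lies below every WT point, and in the Ggps1 panel every one lies above.

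The 3 arrays of each genotype did not overlap for any of the 8 members, 7 lower and 1 higher. Over all genes tested, 14% had all SRSF3HKO arrays below WT and 21.6% all above. No group mean of a member lay below the floor, the lowest being 6.22 for Ggps1 in WT, so all 8 members passed the filter in both groups.

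Liver is a mixture, and fewer cells of a type cannot be told apart here from less RNA per cell. The 10 hepatocyte markers measured had a summed intensity of 96962 to 101677 in WT and 76259 to 81857 in SRSF3HKO, with 2 of 10 called lower (Serpina1c and Cyp2f2) and a median log2 change of -0.22. Albumin (Alb) had a change of -0.02 and read 13.75 to 13.95 (log2) on the 6 arrays. Whether so bright a signal can register a change was not tested. Serpina1c was read by 1 probe set. The 9 macrophage markers summed to 3038 to 3432 in WT and to 21639, 3520 and 4063 in SRSF3HKO replicates 1, 2 and 3. Of these 9, 1 (Marco) was called higher, and by unadjusted limma p under 0.05 Cd68, Vsig4 and Lyz2 were higher too, with no overlap, against 17.6% of all genes at that unadjusted threshold. The number called was 4 without SRSF3HKO replicate 2, 2 without SRSF3HKO replicate 1 and 0 without any single WT array. Without SRSF3HKO replicate 1, the log2 changes were -2.89 for Hmgcs1, -2.99 for Idi1, -1.71 for Fdft1, -1.53 for Fdps, -1.82 for Mvd and -1.51 for Mvk, all still called lower. In the same setting Pmvk had -1.55 and Ggps1 0.65, and both lost their call (limma adjusted p = 0.0632 and 0.0787). Endothelial markers were called in 1 of 8 cases (Kdr, lower), stellate markers in 1 of 8 (Col3a1, lower), and erythroid markers were lower for Alas2 and higher for Tfrc among 4 tested. Over all genes, 5.03% were called lower and 6.85% higher. None of these marker calls was kept without WT replicate 1 or without WT replicate 2. Over the 19 alternatives Cyp2f2 was called in 8, Marco in 9, Col3a1 in 10, Kdr in 11, Alas2 in 15, Tfrc in 16 and Serpina1c in 17. None of the 6 cholangiocyte, 5 lymphocyte and 4 neutrophil markers tested was called by limma. By unadjusted p under 0.05, further markers that differed were Epcam, Spp1, Retnlg and Dcn, higher, and Asgr1, Lyve1 and Slc4a1, lower. Cftr, Cd4, Ms4a1 and Mpo were below the floor on every array. Summed intensity of cholangiocyte markers was 526 to 849 in WT and 854 to 3013 in SRSF3HKO, and that of erythroid markers 3300 to 10917 and 1147 to 10370. The cholangiocyte sum of 3013 was on SRSF3HKO replicate 1, where Spp1 read 11.41 (log2) and the other markers of that list 4.47 to 7.05. For lymphocyte markers the sums were 219 to 268 and 149 to 369, for neutrophil markers 95.1 to 119 and 103 to 473, for endothelial markers 2485 to 3611 and 1472 to 3428, and for stellate markers 3334 to 4160 and 3589 to 6251. The part of these markers in the falls was not tested.

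Srsf3 itself read 9.79, 9.24 and 9.35 (log2) in WT livers against 10.30, 9.10 and 9.78 in the knockout (change 0.26 ± 0.31, limma adjusted p = 0.625). This level is the median over 14 probe sets, and a probe set outside the deleted part of the gene does not check the labels. The deleted part is not known here and single Srsf3 probe sets were not examined, so Srsf3 left the knockout labels unchecked. Signal of the Y-linked gene Eif2s3y was 8.36 to 8.99 (log2) on WT replicates 1 and 2 and SRSF3HKO replicate 3, and 4.16 to 4.18, below the floor, on the other 3 arrays. Within the arrays with that signal, the log2 change was -3.21 for Hmgcs1, -2.73 for Idi1, -1.95 for Fdps, -2.02 for Fdft1, -1.28 for Mvk, -1.57 for Mvd and -0.74 for Pmvk. Within the arrays without it, the changes in that order were -2.78, -3.46, -1.22, -1.66, -1.78, -1.58 and -1.89. The rise of Ggps1 was 0.51 with the signal and 0.81 without. Both sets of arrays gave the same direction for all 8 members. The set with the signal has 1 SRSF3HKO array and the set without it 1 WT array. A test of the difference between the sets rests on those single arrays (interaction SE 0.47 to 0.64), so that it called no member says nothing on whether the sets differ. With the signal as a covariate 6 members were called, all lower. The Pmvk call ended (change -1.32, limma adjusted p = 0.0746), as did that of Ggps1.

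The estimated changes of the members differed in size, though no pair passed the test given below. Hmgcs1 and Idi1 formed the pair with the deepest falls, and their changes differed by 0.19 (95% interval -0.67 to 1.05). The log2 change of Mvk minus that of Idi1 was 1.54 (interval 0.96 to 2.12). The change of Idi1 minus that of Fdps was -1.47 (-2.49 to -0.45), and minus that of Fdft1 -1.28 (-2.12 to -0.44). For Hmgcs1 the difference was -1.28 from Fdps (-1.88 to -0.69) and -1.09 from Fdft1 (-1.54 to -0.64). Fdps and Fdft1, consecutive enzymes, differed in change by 0.19 (-0.19 to 0.57), and Mvk and Pmvk, also consecutive, by -0.02 (-1.14 to 1.09). Ggps1 shares farnesyl diphosphate with Fdps, which makes it, and Fdft1, which uses it. The change of Fdps minus that of Ggps1 was -2.36 (-3.13 to -1.59), and that of Ggps1 minus that of Fdft1 was 2.55 (1.95 to 3.16). The intervals are t intervals from the spread within the groups, each taken alone and not adjusted for the 28 pairs. The values were differences of the within-array log2 values, compared between genotypes for all 28 pairs of members by an exact two-sided permutation test. With 3 arrays against 3 this exact test cannot go below p = 0.1, and 15 of the 28 pairs reached that value (adjusted p = 0.187 over the 28 pairs), so no pair passed the threshold.

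Within the SRSF3HKO group the members did not rank the arrays alike. SRSF3HKO replicate 2 had the highest value of the 3 for Hmgcs1 (9.53), Fdps (9.67) and Fdft1 (9.55). The same array had the lowest for Pmvk (6.97) and Mvd (6.25). SRSF3HKO replicate 3 had the highest value for Mvk (7.28), Pmvk (8.67), Mvd (7.07) and Idi1 (8.59). In WT, replicate 1 was highest for Hmgcs1, Mvd, Idi1, Fdps, Ggps1 and Fdft1, though only narrowly for Idi1. With 3 arrays per group these orders are a description and were not tested.

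Single probe sets gave the same picture in finer detail. Of the 88 probe sets, 83 had a mean above the probe set floor of 5.63, and 66 of them were called lower and none higher by limma over all 157764 tested probe sets. By unadjusted p under 0.05, 7 of the 9 tested Ggps1 probe sets were higher, against 14.8% of all tested probe sets. Over the whole array 4.32% of tested probe sets were called lower and 4.73% higher. All SRSF3HKO arrays lay below all WT arrays for 71 of the 83 probe sets and above for 7, against 13.5% and 18.3% over the array. In 4 of the 83 (2 of Mvd, 1 of Mvk and 1 of Ggps1) the mean of 1 genotype lay below the floor, so that their changes are limited by the floor. The other 5 of the 88, 3 of Ggps1 and 1 each of Pmvk and Fdps, were too dim to test.

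All 13 probe sets of Mvd and all 6 of Idi1 were called lower, with changes of -2.32 to -1.38 and of -3.29 to -2.49. The Idi1 probe set with the deepest fall, 4388739, went from intensities of 3719, 2828 and 3576 in WT to 262, 330.0 and 405 in SRSF3HKO. Fdft1 had 12 of 13 called lower, with changes of -2.32 to -1.41 among those called. Its probe set 4670270 had 4761, 4476 and 4290 in WT against 1689, 1658 and 1695 in SRSF3HKO, values that hardly varied within the knockout. Hmgcs1 had 11 of 13 called lower, between -3.16 and -1.59. Fdps had 9 of 10 (between -2.48 and -1.67), Mvk 8 of 11 (between -1.89 and -1.05) and Pmvk 7 of 8 (the smallest fall -1.29). All 74 tested probe sets of these 7 genes had a negative change, including the 8 that were not called. The brightest Fdps probe set, 5574282, went from 9388, 8208 and 7806 in WT to 2278, 3095 and 2631 in SRSF3HKO.

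All 9 tested probe sets of Ggps1 had a positive change, from 0.42 to 0.97, and none was called singly (limma adjusted p from 0.0534 to 0.428). The one with the lowest adjusted p, 5230750, read 206, 159 and 210.0 in WT livers against 323, 385 and 334 in the knockout (intensity). Its 2 groups were separate, as were those of 6 others of the 9.

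**Figure D2:**
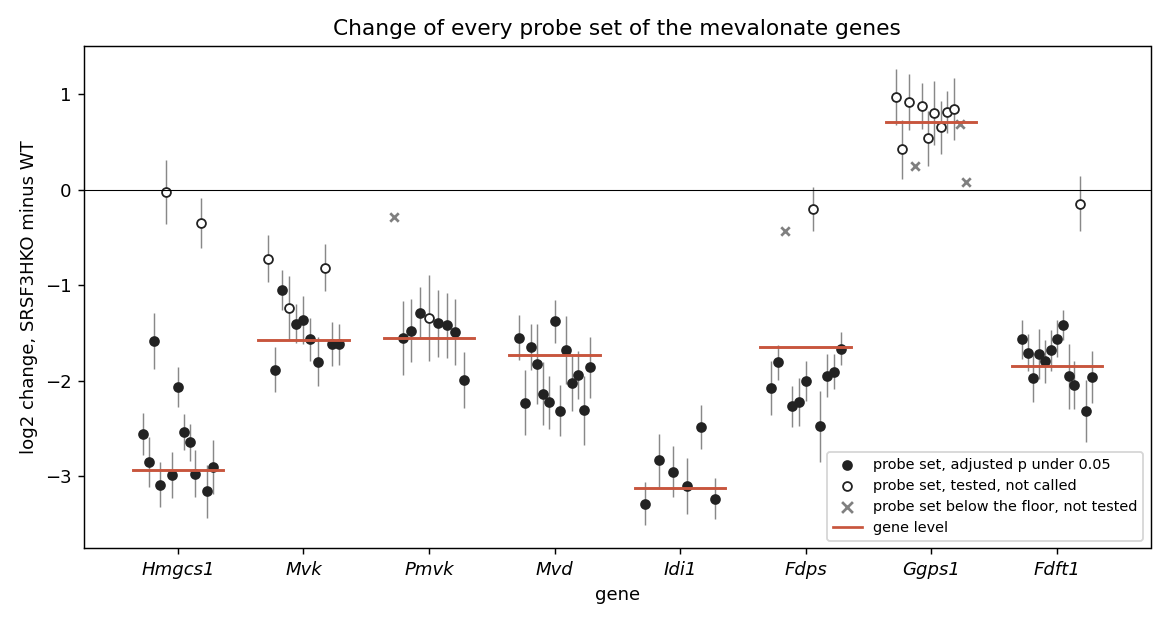
Log2 change of each of the 88 probe sets, SRSF3HKO minus WT (y axis), by gene (x axis). Filled points are called by limma at an adjusted p under 0.05, open points are not, crosses were below the floor, bars are SE and red lines give the gene-level change. The changes of Idi1 lie between -3.29 and -2.49, whereas single probe sets of Hmgcs1, Fdps and Fdft1 stand near 0.

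In 3 of the genes that fell, single probe sets stood apart from the rest of their gene. Hmgcs1 probe set 4607053 read 266, 193 and 492 in WT livers against 276, 249 and 350.5 in the knockout, a log2 change of -0.03 ± 0.33. Its ranges overlapped, while the other probe sets of that gene, apart from 5180606, fell at least 3.01-fold. Probe set 5180606, also of Hmgcs1, was dim, with 52.4, 37.7 and 54.6 in WT and 37.4, 35.6 and 29.5 in SRSF3HKO (change -0.35 ± 0.26). Fdps probe set 4812539 was not dim, with 634, 763 and 748 in WT and 519, 797 and 571 in SRSF3HKO (change -0.20 ± 0.23). The dim Fdft1 probe set 5124144 had 56.9, 44.4 and 30.8 in WT and 42.9, 42.3 and 28.3 in SRSF3HKO (change -0.15 ± 0.29).

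Relative to the other probe sets of their gene, these 4 were called as used more in SRSF3HKO by limma's diffSplice, with log2 usage changes of 2.45 and 2.10 for Hmgcs1, 1.84 for Fdps and 1.67 for Fdft1 (adjusted p = 6.21e-08, 2.86e-06, 2.73e-05 and 1.26e-04). Over the array 0.662% of 142800 probe sets were called in that test. The per-array splicing index, each probe set minus its gene level, gave changes of 2.91, 2.58, 1.45 and 1.70 in the same order, and called none of the 83 member probe sets (limma adjusted p = 0.11, 0.197, 0.164 and 0.242 for the 4). By unadjusted p under 0.05 the index marked 20 of the 83, against 11.9% of all 142800, and with adjustment it called 0.0168% of them. diffSplice takes 1 spread for all probe sets of a gene, and the index takes a spread for each. Probe sets 5180606 of Hmgcs1 and 5124144 of Fdft1 lay close to the floor of 5.63 in both genotypes, with mean log2 values of 6.00 and 5.65 for the first and 5.88 and 5.74 for the second. The log2 scale understates changes of dim probe sets. Whether the usage changes of 5180606 and 5124144 follow from the fall of their genes was not tested. Probe sets 4607053 of Hmgcs1 and 4812539 of Fdps lay well above the floor. Where these probe sets lie along their genes was not analysed here.

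**Figure D3:**
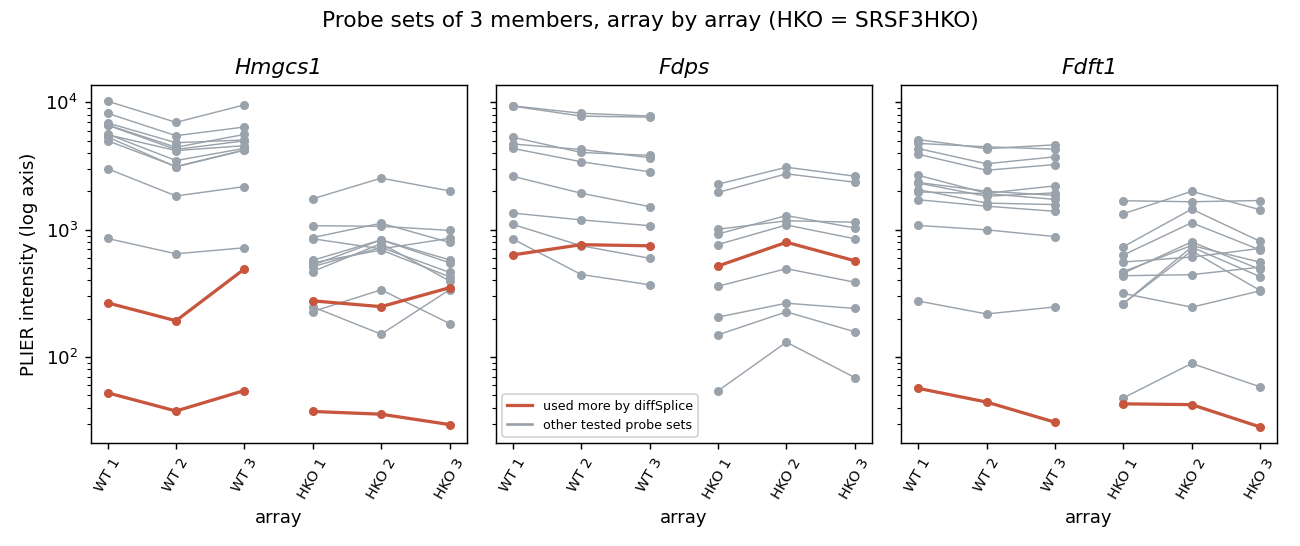
Deposited PLIER intensity of every tested probe set of Hmgcs1, Fdps and Fdft1 (y axis, log scale) on the 6 arrays (x axis). Red lines are the 4 probe sets that diffSplice called as used more in SRSF3HKO, grey lines are the others; lines join the 3 arrays of a genotype only to mark 1 probe set. The grey lines step down between the genotypes, and the Fdps red line runs between 519 and 797 throughout.

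Genes around the pathway were read from lists of its neighbours. The median log2 change of 11 measured enzymes that carry squalene to cholesterol was -1.99. Of these 11, 8 were called lower and none higher, against 5.03% and 6.85% of all genes. They included Cyp51, the lanosterol demethylase gene (-3.23 ± 0.36), the reductase gene Tm7sf2 (-3.01 ± 0.30), Nsdhl (-2.69 ± 0.20), Sc5d (-2.29 ± 0.29), Msmo1 (-2.19 ± 0.32), Dhcr7 (-1.99 ± 0.24) and Sqle, which acts directly on squalene (-1.71 ± 0.17). Ebp had a change of -1.03 ± 0.26, and its call was lost when any WT array or SRSF3HKO replicate 1 was left out (limma adjusted p = 0.137, 0.160, 0.101 and 0.0691) and with quantile normalization, median centring or no filter on low values (0.0542, 0.0507 and 0.0541). Lss, Hsd17b7 and Lbr had changes of -0.61, -0.62 and -0.64 and were not called (limma adjusted p = 0.261, 0.255 and 0.166). Without SRSF3HKO replicate 2, all 11 were called lower.

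Upstream, Acly, which makes cytosolic acetyl-CoA from citrate, fell by 1.92 ± 0.30 on the log2 scale (limma adjusted p = 0.00846). Of 5 measured genes around acetyl-CoA and HMG-CoA 4 were called lower, against 5.03% of all genes, and the list median was -1.08. The others were Acat1, the mitochondrial thiolase gene (-1.42 ± 0.28), Soat2, which esterifies cholesterol (-1.08 ± 0.23), and Acat3 (-0.81 ± 0.20). Acat3 is a close relative of Acat2 and its neighbour on chromosome 17 of GRCm38, and its 6 probe sets may not tell the 2 transcripts apart. The calls of Acat1, Soat2 and Acat3 ended without each WT array (limma adjusted p = 0.0945, 0.0797 and 0.0710 for Acat1, 0.107, 0.0863 and 0.0723 for Soat2, and 0.121, 0.130 and 0.113 for Acat3). They also ended without SRSF3HKO replicate 1 for Acat3 and without SRSF3HKO replicate 3 for Soat2 (limma adjusted p = 0.0649 and 0.0555). The Acat3 change was also smaller with the mean over probe sets or median polish, at -0.32 and -0.49 (limma adjusted p = 0.265 and 0.0915). Soat1 had a change of 0.86 ± 0.41 and was not called (limma adjusted p = 0.207).

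The genes that govern SREBP2 and cholesterol uptake did not move as a block. Of 15 tested, 2 fell and 1 rose, with a median of -0.20, against 5.03% and 6.85% of all genes. By unadjusted limma p under 0.05, 6 were lower and 1 higher, against 11.4% and 17.6%, the added 4 being Scap, Srebf1, Nr1h3 and Ubxn8, each with no overlap. The number called lower was 4 without SRSF3HKO replicate 2 and 0 without WT replicate 1. Insig1, itself a known SREBP target, read 11.92, 11.60 and 12.07 (log2) in WT livers against 9.12, 11.06 and 10.09 in the knockout (change -1.77 ± 0.43, limma adjusted p = 0.0362). Its arrays did not overlap, and SRSF3HKO replicate 2 stood nearest to WT. Stard4, which carries sterol in the cytosol, fell by 1.12 ± 0.18 on the log2 scale, and Rnf145, a ubiquitin ligase gene, rose by 1.47 ± 0.22. Srebf2 read 9.03, 8.95 and 9.34 (log2) in WT livers against 8.71, 9.50 and 8.74 in the knockout, with a change of -0.12 ± 0.26 (limma adjusted p = 0.796), and the groups overlapped. Scap (-0.77 ± 0.23), Srebf1 (-1.24 ± 0.40) and Insig2 (0.37 ± 0.27) were not called (limma adjusted p = 0.0646, 0.0796 and 0.408). The Insig1 call was lost when any WT array or SRSF3HKO replicate 3 was left out (limma adjusted p = 0.127, 0.108, 0.120 and 0.0740), that of Rnf145 without WT replicate 1 or 2 (0.0530 and 0.0506) and that of Stard4 without WT replicate 1 (0.0625).

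Among genes of enzymes that use the isoprenoid products, 1 of 15 tested was called higher and none lower by limma, shares near the 6.85% and 5.03% of all genes, with a median of 0.23. By unadjusted p under 0.05, 4 were higher and none lower, against 17.6% and 11.4% of all genes. The number called higher was 3 without SRSF3HKO replicate 2, 2 without SRSF3HKO replicate 1 and 0 without WT replicate 1. Rce1, the protease gene that trims prenylated proteins, rose by 1.22 ± 0.18 on the log2 scale (limma adjusted p = 0.00758), a call that ended without WT replicate 1 (limma adjusted p = 0.0530). The geranylgeranyl transferase genes Pggt1b, Rabggta and Rabggtb had changes of 0.13, -0.06 and 0.43, and the farnesyl transferase genes Fnta and Fntb had 0.31 and -0.19; none was called. Among genes of factors that join SREBP at promoters, Nfyc rose by 0.72 ± 0.19 on the log2 scale and the other 5 were not called, with changes of -0.03 to 0.08. The Nfyc call (limma adjusted p = 0.0449) ended with quantile normalization or median centring (0.0535 and 0.0542) and without each array apart from SRSF3HKO replicate 2, at limma adjusted p = 0.148, 0.150, 0.129, 0.0600 and 0.107. Fitting the Y-linked term ended the calls of Ebp, Acat1, Soat2, Acat3, Insig1 and Nfyc (limma adjusted p = 0.0865, 0.0545, 0.0549, 0.0920, 0.0737 and 0.0948).

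**Figure D4:**
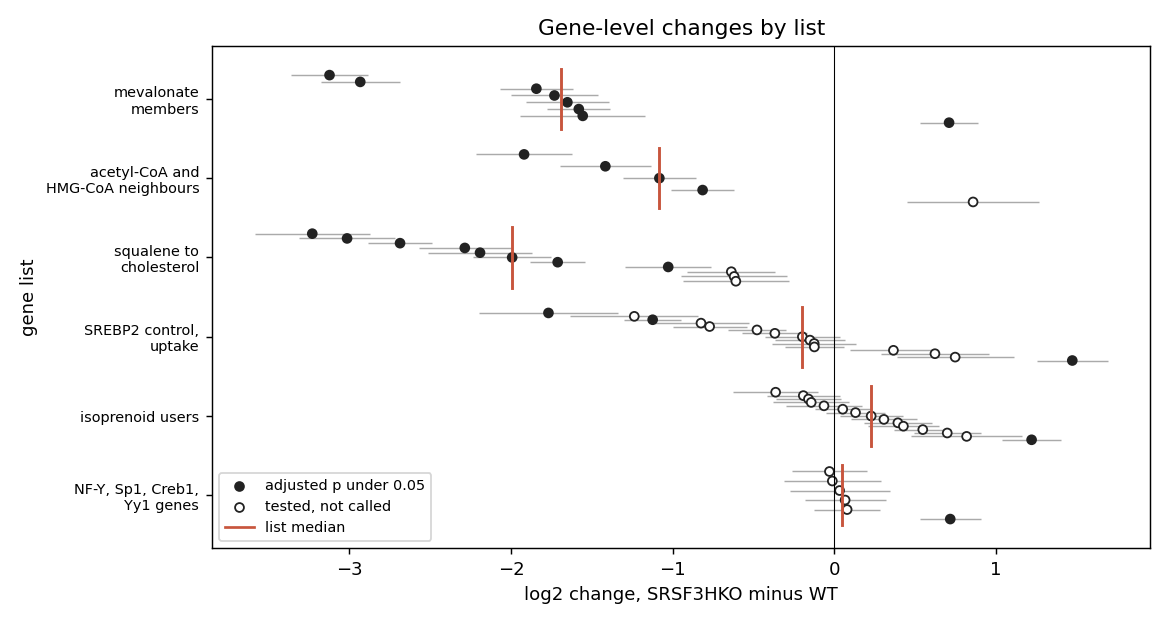
Gene-level log2 change, SRSF3HKO minus WT (x axis), of the genes tested in each of 6 lists (y axis). Filled points are called by limma at an adjusted p under 0.05, open points are not, bars are SE and red lines are list medians. The medians of the members and of the steps from squalene to cholesterol are -1.69 and -1.99, and that of the isoprenoid users is 0.23.

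The genes outside these lists whose profile over the 6 arrays was most like that of the members were Sema4g, Ssbp3, P2ry4, Cyb5b, Itih4 and Vwce. Likeness was Pearson's r with the mean of the 8 called members, the rising Ggps1 included, each centred on its own mean. It lay between 0.995 and 0.998 for these 6 genes. The points share the arrays and the genotype step, and no p is given. Cyb5b, the gene of a mitochondrial outer membrane cytochrome b5, had a log2 change of -1.27 ± 0.18. P2ry4, a nucleotide receptor gene, changed by -2.01 ± 0.18.

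**Figure D5:**
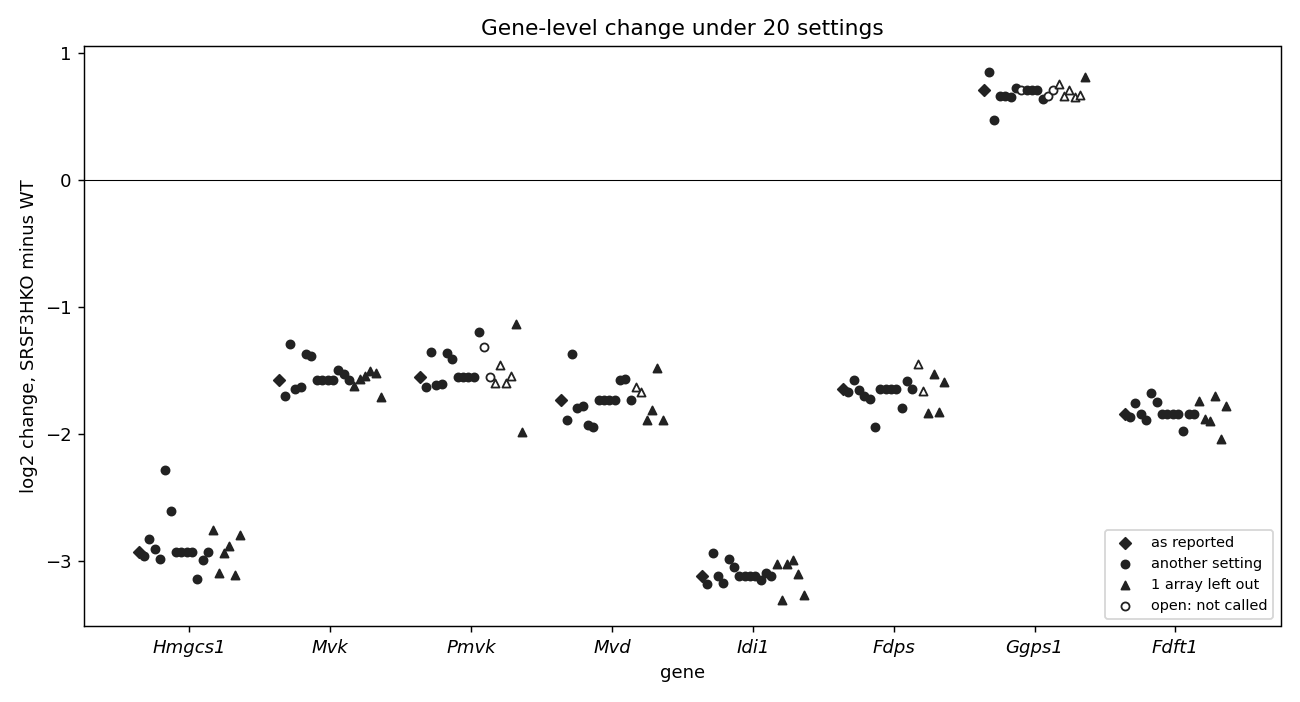
Gene-level log2 change of each member, SRSF3HKO minus WT (y axis), as reported (diamond), under other processing settings (circles) and with 1 array left out (triangles), by gene (x axis). Open symbols were not called. The sign never changed in 152 recomputed values, and the calls of Hmgcs1, Mvk, Idi1 and Fdft1 were kept in all 19 alternatives.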

How the data were processed

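Liver RNA was measured on 6 arrays, 3 of SRSF3HKO and 3 of WT, each sample placed by its genotype label; replicate numbers follow sample order and pair nothing. The deposited values are linear intensities that the authors obtained with PLIER for core exons, per the labels, and Affymetrix Expression Console is named in the submitters' processing notes. Versions and background steps are not given in the sources used here.

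Of 229581 probe sets, 208397 had 1 gene in the supplied annotation, 3965 had several and 17219 had none. Of 16299 symbols, 2124 were updated through RefSeq. Intensities were taken as log2(value + 16). The detection floor was the 90th percentile of mean log2 values of 1046 olfactory, vomeronasal and taste receptor genes. Genotypes were compared with limma 3.58.1 (eBayes with trend, Benjamini-Hochberg) in R 4.3.3, and exon usage with diffSplice in genes with at least 3 tested probe sets. Code was tested on simulated data; there diffSplice also called probe sets that had not been changed, and its calls are printed with the index test. Figures were drawn with matplotlib 3.10.9.

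The members and gene lists were chosen with earlier results of these data known. By rule the text names all members, up to 8 called genes of each pathway list, a few SREBP regulators and neighbours, and the 6 genes of likeness. Single probe sets, uncalled list genes outside that rule (Soat1, Lss, Lbr, Hsd17b7 and the prenyl transferase genes) and single markers were named after their values were seen. Alternatives were a pseudocount of 1 or 64, median polish or the mean for the gene level, centring arrays on their median, quantile normalization, other filters, eBayes without trend or robust, array weights, a Y-linked covariate, an adjusted p under 0.01, and each array left out.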

Additional observations from a re-analysis of the deposited data

How the results depend on the processing

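Of 152 recomputed gene-level changes of the 8 members, none changed sign and 18 lost their call. The number of members called, 8 as reported, was kept in 11 of 19 alternatives; it was 7 with no filter on low values, 6 with the Y-linked covariate or at an adjusted p under 0.01, and between 4 and 8 when 1 array was left out (4 without WT replicate 1 or 2). Member probe sets called ranged from 52 to 69 over 18 alternatives, with 1 called higher in 2 of them (array weights, and a filter at the median). Exon usage calls, 4 with diffSplice, all used more, were 3 with a filter at the median, 7 with array weights, 0 with the splicing index, and between 4 and 7 with 1 array left out, the highest without SRSF3HKO replicate 2; both sets of 7 held 5 used more and 2 used less; the index takes the spread of each probe set on its own.

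Over the whole array, the 1391 called genes became 244, 274 and 434 when WT replicate 1, 2 or 3 was left out, 2155 when SRSF3HKO replicate 2 was, 2157 with array weights, 618 with the Y-linked covariate and 296 at an adjusted p under 0.01, and the 14270 called probe sets became 3007, 3732, 5090, 21886, 23404, 6245 and 3339 in the same order. The cause was not tested. The median change of all genes was 0.08 as reported and 0.03 with quantile normalization or median centring. Dim probe sets limit what can be said of Ggps1. No paired analysis was possible because the groups share no replicate numbers in the labels.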
